A study of Temnothorax rugatulus with 32 samples.

Results

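Histone H3.3 and 6 kinds of protein that write or erase marks on histones were followed through the brain and the fat body of old and young queens of the ant Temnothorax rugatulus. They were represented by 10 assembled transcript sequences, called contigs. Members were chosen by the words histone, sin3, lysine-specific demethylase or chromatin in the authors' contig descriptions, with an ant as the species of the best protein hit, and the 10 with the highest total count were kept. The words fitted 11 contigs with an ant hit among 1073 described contigs, out of 228763 contigs in the count table. The last contig kept, the 633-base SETD1B-like contig, had 2937 reads over all libraries, and the first one left out, histone deacetylase complex subunit SAP130-A, had 2659. A further 3 contigs fitted the words but had their best hit in a sawfly, a fly or a fluke.

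The authors described only contigs that they listed for a difference between ages, and all 10 members came from their table for age in the fat body, none from the table for the brain. The age difference in the fat body was therefore used in choosing them and is given below as a description, without a test. The comparisons between tissues are other contrasts, but their fat body arms are the same libraries that chose the members. Members listed as lower in old fat bodies lean toward lower values in the old fat body arm and higher values in the young one, and members listed as higher lean the other way. The tissue tests are therefore not fully independent of the choice, and their p values are given on that condition. The comparison of ages in the brain used no fat body library, although brain and fat body came from the same queens and the deviations of paired libraries from their group means correlated.

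Queens were collected in the field, decapitated and dissected on ice. The 32 libraries fall into 4 groups of 8, namely young brain, old brain, young fat body and old fat body, and within a tissue each library is a separate queen. The labels give age as old or young only, and young brain Y-134 was read on 2 lanes whose reads the authors merged. RNA came from whole dissected tissue, so fewer cells of a type and less RNA per cell cannot be told apart.

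Chromatin is DNA wound around octamers of histone proteins. Histone H3.3 is the replacement form of histone H3 that is put into chromatin outside DNA replication, and in mammals it builds up with age in cells that no longer divide, such as neurons. Acetyltransferases and methyltransferases add marks to histone tails, while deacetylase complexes and demethylases take them off. The fat body of insects combines the tasks of liver and adipose tissue and makes yolk proteins in egg-laying queens. The roles given below are known from yeast, Drosophila or mammals, since the contigs carry only the name of their best hit.

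Total counts per library ranged from 13861667 to 33461227. A few contigs held a large part of the fat body counts. In each group the mean share of its top 100 contigs was 19.7% for old brains, 21.5% for young brains, 42.4% for young fat bodies and 52.2% for old fat bodies. The correlation of a library with the mean of the other 7 of its group ran from 0.842 to 0.891. Old fat body O-482 stood apart at 0.842, against 0.876 to 0.886 for the other old fat bodies. Old brains O-603 and O-796 were also low, at 0.848 and 0.845, against 0.867 to 0.883 for the other old brains. The edgeR tests were repeated without each of these libraries, and the values are given below where a call or a sign changed. The H3.3 share is also given without O-482, and 1 pair of members without both old brains. Complexin, a regulator of synaptic vesicle release picked after its values were seen, ranged from 41.0 to 195 CPM (counts relative to the scaled library size) in the brains and from 0.0841 to 5.57 CPM in the fat bodies. The alpha-7-like subunit of the neuronal acetylcholine receptor ranged from 2.13 to 9.64 CPM in the brains and had a median of 0 CPM in both fat body groups. Summed, the 2 described contigs of the neuron list did not separate the tissues, at 97.9 to 216 CPM in the brains and 75.1 to 217 in the fat bodies. Most of this sum was neuroligin-1-like, with medians of 139 and 118 CPM in young and old brains. Its medians were 183 CPM in young fat bodies and 111 in old fat bodies. Levels below are CPM on a trimmed-mean (TMM) scale common to the 32 libraries, whereas each test scaled its own 16 libraries. The log2 differences therefore lie above those of the printed CPM by 0.20 for tissue in old queens and by 0.03 for tissue in young queens.

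Among the members, histone H3.3 was the most abundant per length in 3 of the groups. Its 2 contigs belong to 1 assembly component and together reached 219.9 ± 36.4 CPM per kilobase (SD, n = 8) in young brains, 211 ± 19.2 in old brains and 205 ± 34.1 in young fat bodies. These 3 means differed by less than their SDs. In old fat bodies the sum was 135 ± 18.8 CPM per kilobase, and there the lysine-specific histone demethylase 1 homolog 3-like contig had the higher mean, at 239 ± 135. Its spread reached the H3.3 level, so the order of these neighbours was not fixed. Behind them in young brains came the lysine-specific demethylase 7A-like contig at 21.1 ± 4.8 CPM per kilobase and SDS3 at 14.2 ± 2.0. Tip60 had the lowest level per length in 3 of the groups, at 5.30 ± 0.26 CPM per kilobase for young brains, 4.71 ± 0.31 for old brains and 3.07 ± 0.28 for old fat bodies, and in young fat bodies the demethylase 7A-like contig lay below it, at 3.17 ± 0.82 against 4.44 ± 0.76. In old fat bodies its neighbours, the 633-base SETD1B-like contig at 3.19 ± 0.52 and the 1049-base KAT2A-like contig at 3.59 ± 0.72, lay within their spread of it.

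**Figure D1:**
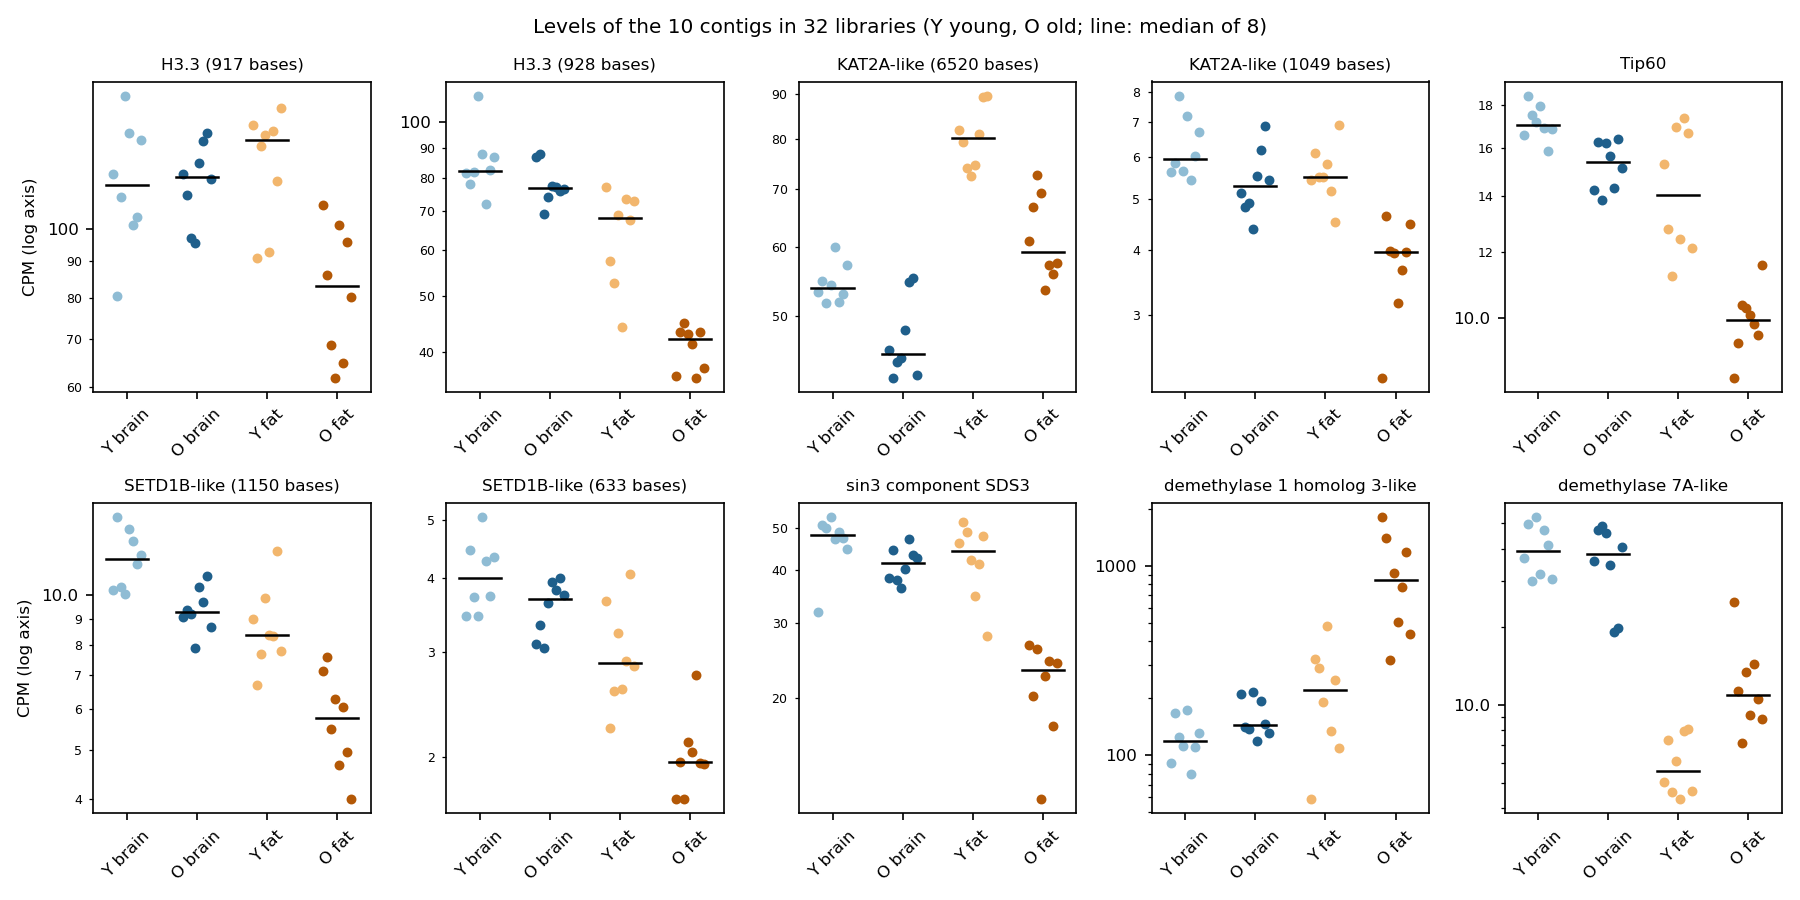
Level of each of the 10 contigs in each library, in CPM on a log axis, with 1 point per library, 8 per group, and a bar at the group median. The demethylase 1 homolog 3-like contig was highest in old fat bodies with a median of 846 CPM, and the demethylase 7A-like contig was lowest in young fat bodies with a median of 5.58 CPM.

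Across the 10 members, 5 passed the edgeR test between fat body and brain in young queens and 8 passed it in old queens, at an adjusted p under 0.05. Tissue differences were common in these libraries. In young queens 57.0% of 35113 contigs passed. The 2 members that were higher in the fat body stood beside 23.0% of all contigs and the 3 that were lower beside 34.0%. In old queens 55.8% of 34574 contigs passed, with 26.1% higher and 29.7% lower in the fat body, and the members divided into 2 higher and 6 lower. The choice of the members moved these counts, since 8 of the 10 were listed as lower in old fat bodies, and nothing is read from their distance to the background.

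Levels of the 2 tissues did not overlap for 2 members in young queens, against 35.9% of contigs, with 1 member above (10.9%) and 1 below (25.0%). In old queens they did not overlap for 6 members, against 33.0% of contigs, with 1 above (11.3%) and 5 below (21.7%). These counts rest on the same fat body libraries as the choice, and nothing is read from them either. Overlap was judged on the common scale of the printed CPM, and in old queens it can differ on the scale of the tests, which lies 0.20 log2 apart. The median log2 difference over the members was -0.18 in young queens and -0.46 in old queens, beside -0.27 and -0.05 over all contigs. With median-of-ratios scaling the median over all contigs in old queens moved to -0.23. For that reason, the 3 smallest member differences in old queens are also given relative to the median of all contigs. The authors' deposited tables for tissue listed 6 of the 10 members in young queens, among 42837 listed contigs (18.7% of all contigs). In old queens they listed all 10, among 38180 (16.7%). The choice of the members bears on these counts too, and nothing is read from them.

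**Figure D2:**
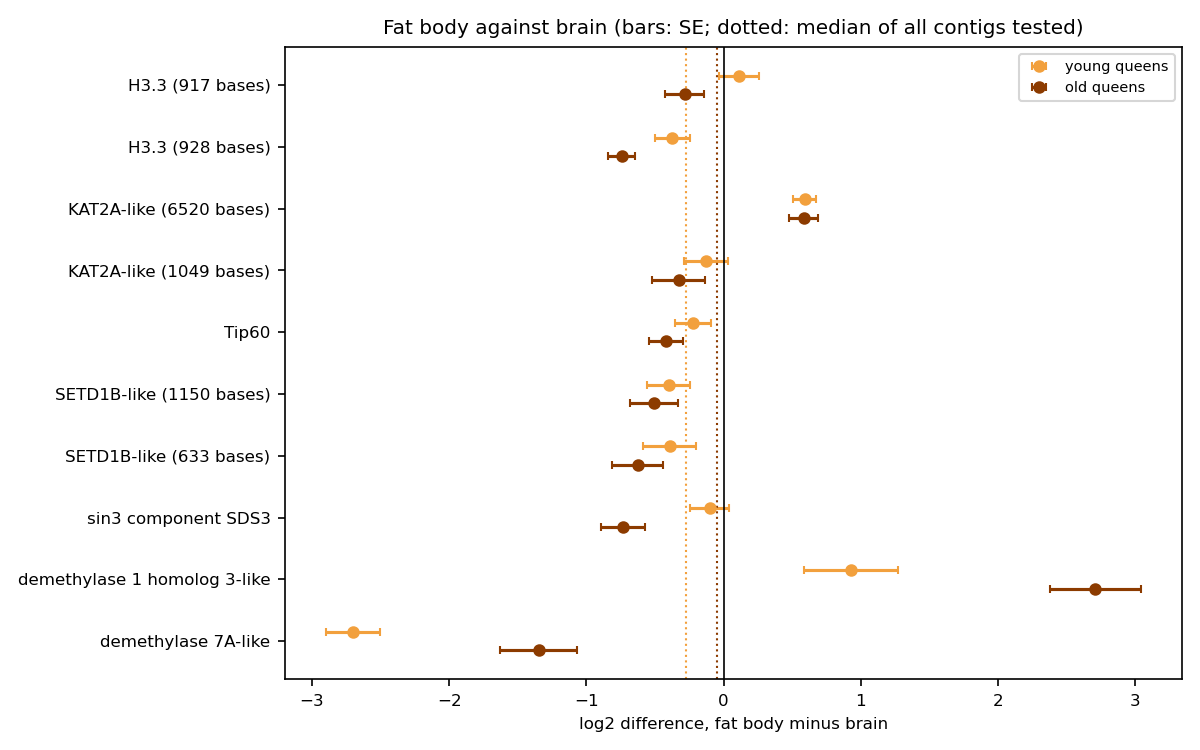
Log2 difference of fat body minus brain for the 10 members in young and in old queens, with bars of 1 SE from edgeR, 8 libraries per group, and a dotted line at the median of all contigs. The points run from -2.70 for the demethylase 7A-like contig in young queens to 2.71 for the demethylase 1 homolog 3-like contig in old queens.

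Histone H3.3 was represented by contigs of 917 bases (TR52378c1_g1_i2) and 928 bases (TR52378c1_g1_i1), both with their best hit in Camponotus floridanus. The 917-base contig ranged from 80.5 to 154 CPM in young brains (median 115), from 95.4 to 136 in old brains (median 118), from 91.1 to 148 in young fat bodies (median 133) and from 61.7 to 108 in old fat bodies (median 83.1). All 4 groups overlapped, with the old fat bodies lowest. Fat body and brain differed by 0.11 ± 0.14 (log2 ± SE, edgeR adjusted p = 0.54) in young queens and by -0.29 ± 0.14 (adjusted p = 0.1) in old queens. Relative to the median contig, the difference in old queens was -0.24. It passed the threshold in other fits, at -0.47 and an adjusted p of 0.011 with median-of-ratios factors. Without old fat body O-189 it was -0.43 (adjusted p = 0.024), and without old fat body O-482 it was -0.44 (adjusted p = 0.019). The median over all contigs moved as well, from -0.05 to -0.23, -0.22 and -0.24 in these fits, in that order.

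The 928-base contig was lower in the fat body in both ages. It ranged from 72.1 to 111 CPM in young brains (median 82.1), from 69.1 to 87.9 in old brains (median 76.8), from 44.1 to 77.1 in young fat bodies (median 68.2) and from 36.1 to 44.9 in old fat bodies (median 42.1). Every old fat body lay below every old brain, whereas the tissues overlapped in young queens. The log2 difference was -0.37 ± 0.13 (edgeR adjusted p = 0.019) in young queens and -0.74 ± 0.10 (adjusted p = 7.2e-06) in old queens.

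Summed over the component, H3.3 did not pass the test between tissues in young queens (-0.00 ± 0.13, edgeR adjusted p = 0.99) and was lower in the fat body of old queens (-0.41 ± 0.11, adjusted p = 0.0027). The sum ranged from 101 to 144 CPM in old fat bodies and from 166 to 212 in old brains, without overlap. In young queens the fat bodies spanned 137 to 221 CPM and the brains 158 to 265, overlapping widely. The call in young queens for the 928-base contig thus did not hold for the component as a whole.

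The share of the component's counts taken by the 917-base contig was higher in the fat body in every queen. In young queens it was 65.9% ± 3.0 (SD, n = 8) in the fat body and 57.7% ± 3.2 in the brain, a difference of 8.18 points (exact two-sided permutation test, adjusted p = 0.00031). In old queens it was 66.6% ± 5.3 against 59.8% ± 3.1, a difference of 6.86 points (exact permutation test, adjusted p = 0.013). Without old fat body O-482 the difference in old queens was 6.23 points (exact permutation test, adjusted p = 0.025). All 8 queens of each age showed this direction, and the exact test within queens gave an adjusted p of 0.012 in both ages. Reads of near-identical contigs may have been divided between them by the authors' estimation, and the part of this in the shares was not tested.

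**Figure D3:**
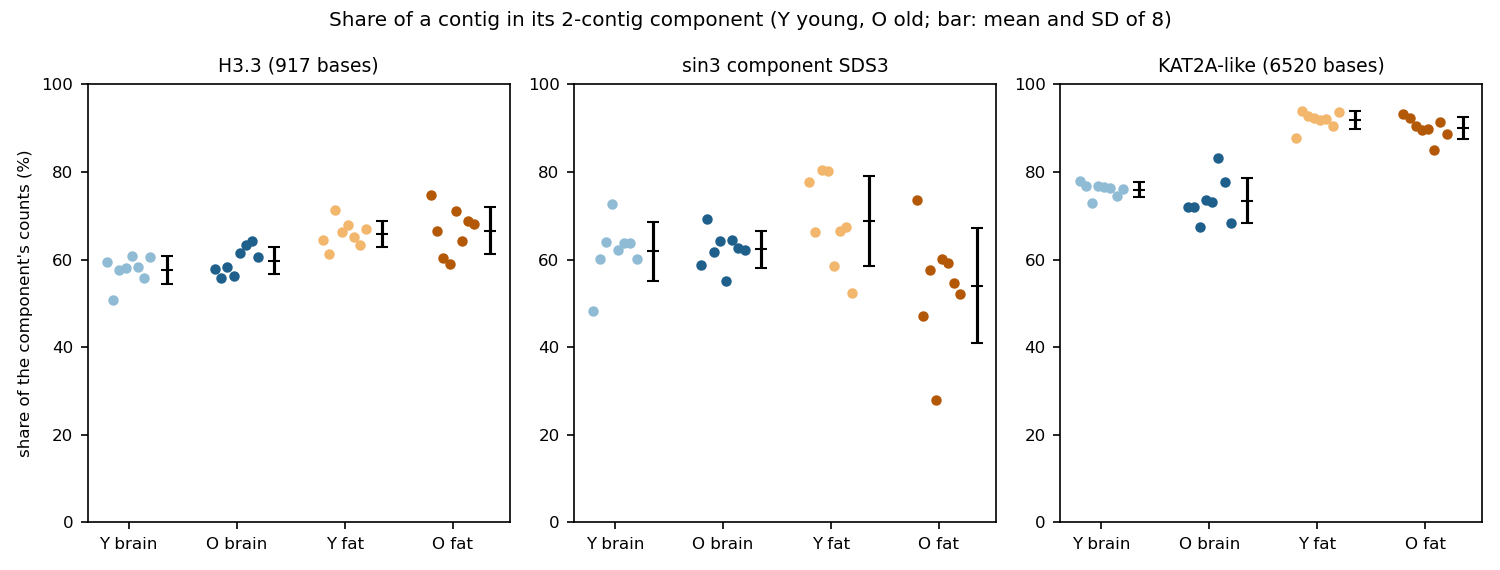
Share of the assembly component's counts carried by 1 member contig, in percent, for the 3 components that hold a member and another contig. There is 1 point per library, 8 per group, and a bar for the mean and its SD. For H3.3 the contig shown is the 917-base one, and the other contig is also a member. The KAT2A-like contig took 91.9% in young fat bodies against 76.0% in young brains, and the SDS3 shares overlapped between tissues.

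KAT2A, known as GCN5 in yeast, is the acetyltransferase of the SAGA coactivator complex and acetylates histone H3. The 6520-base KAT2A-like contig (TR66407c0_g1_i2, best hit in Vollenhovia emeryi) was higher in the fat body in both ages. It ranged from 51.7 to 60.0 CPM in young brains (median 53.8) and from 72.5 to 89.7 in young fat bodies (median 80.1). In old queens it ranged from 42.5 to 55.3 CPM in the brain (median 45.3) and from 53.6 to 72.8 in the fat body (median 59.3). The young tissues did not overlap, and the old tissues met only at the edges. The log2 difference was 0.59 ± 0.08 (edgeR adjusted p = 1.3e-05) in young and 0.58 ± 0.11 (adjusted p = 0.00018) in old queens. Without a filter on low counts it was 0.30 in old queens and did not pass (adjusted p = 0.19).

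The other contig of the same component, 5418 bases long, went the opposite way. It had medians of 17.2 CPM in young brains and 6.25 in young fat bodies, and of 17.2 and 6.67 in old queens. Its log2 difference was -1.24 in young queens (edgeR adjusted p = 1.6e-05) and -1.14 in old queens (adjusted p = 8.6e-05). The 6520-base contig accordingly took 91.9% ± 2.0 (SD, n = 8) of the component in young fat bodies against 76.0% ± 1.6 in young brains, and 90.1% ± 2.5 against 73.5% ± 5.1 in old queens. Both differences, 15.9 and 16.7 points, had an exact permutation adjusted p of 0.00031, and all 8 queens of each age shared the direction. This was the component with the most unequal use of contigs between the tissues among the 3 that could be examined.

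A second KAT2A-like contig of 1049 bases (TR32778c0_g1_i1) had its best hit in another ant, Linepithema humile, and whether it belongs to the same gene cannot be told from these files. It was rare, from 4.38 to 7.87 CPM in the brains and from 2.28 to 6.93 in the fat bodies. The tissues overlapped in both ages. The difference did not pass in young queens (-0.13 ± 0.16, edgeR adjusted p = 0.53) or in old queens (-0.33 ± 0.19, adjusted p = 0.16, -0.28 relative to the median contig). With median-of-ratios factors the latter was -0.51 (adjusted p = 0.029).

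Tip60 is the acetyltransferase of the NuA4 complex, which acts on histones H4 and H2A. Its contig (TR40954c0_g5_i1, 3234 bases, best hit in Cyphomyrmex costatus) ranged from 15.8 to 18.5 CPM in young brains (median 17.0), from 13.9 to 16.4 in old brains (median 15.4), from 11.2 to 17.4 in young fat bodies (median 14.1) and from 8.47 to 11.6 in old fat bodies (median 9.95). Old fat bodies lay below all old brains, and the young tissues overlapped. The difference was -0.42 ± 0.12 (log2 ± SE, edgeR adjusted p = 0.0076) in old queens, or -0.37 relative to the median contig. In young queens it was -0.22 ± 0.13 and did not pass (adjusted p = 0.16).

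SETD1B is a methyltransferase of the COMPASS family that marks histone H3 at active promoters. Its 2 contigs shared a single best-hit protein of Vollenhovia emeryi, so they may be pieces of 1 transcript and are not independent observations. The 1150-base contig (TR67533c0_g1_i1) had medians of 11.8 CPM in young brains, 9.27 in old brains, 8.36 in young fat bodies and 5.76 in old fat bodies. The 633-base contig (TR16316c0_g1_i1) kept this order of medians, with 4.0, 3.69, 2.87 and 1.96 CPM. In old queens the fat bodies lay below the brains without overlap for both contigs on the scale of the printed CPM. They reached 7.57 CPM at most against at least 7.89 for the longer contig, and 2.75 against 3.05 for the shorter. Both gaps are narrower than the 0.20 log2 by which the test scale differs, so the absence of overlap depends on the scale.

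For the 1150-base contig the tissue difference was -0.40 ± 0.16 (edgeR adjusted p = 0.039) in young and -0.51 ± 0.17 (adjusted p = 0.02) in old queens. With the queen as a block the young value was -0.41 ± 0.19 and no longer passed (adjusted p = 0.085). The 633-base contig differed by -0.39 ± 0.20 (adjusted p = 0.097) in young queens, not passing, and by -0.63 ± 0.19 (adjusted p = 0.0085) in old queens. Without a filter on low counts neither contig passed in old queens (adjusted p = 0.056 and 0.075).

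SDS3 is a scaffold subunit of the Sin3 complex, which removes acetyl groups from histones. Its contig (TR65643c0_g1_i1, 3308 bases, best hit in Vollenhovia emeryi) ranged from 31.8 to 53.2 CPM in young brains (median 48.2), from 36.4 to 47.3 in old brains (median 41.5) and from 27.9 to 51.7 in young fat bodies (median 44.2). In old fat bodies it ranged from 11.6 to 26.7 CPM (median 23.3). Those 8 libraries lay below every library of the other 3 groups. The tissue difference was -0.74 ± 0.16 (edgeR adjusted p = 0.00096) in old queens and -0.10 ± 0.14 (adjusted p = 0.57) in young queens. Another contig of the component, 3443 bases long, had a median of 21.9 CPM in the fat body of young queens and 18.0 CPM in that of old queens, with overlapping ranges. Unlike the SDS3 member, it passed between tissues in young queens (-0.52, adjusted p = 0.045) and not in old queens (-0.23, adjusted p = 0.35), though the 2 contigs were not tested against each other. The share of the SDS3 contig in its component did not pass between tissues (exact permutation adjusted p = 0.14 in young and 0.12 in old queens).

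The demethylase members had the largest tissue differences of the 10 contigs, in young and in old queens. LSD1 and its relatives are amine oxidases that remove methyl groups from histone H3. The lysine-specific histone demethylase 1 homolog 3-like contig (TR73382c0_g4_i1, 3845 bases, best hit in Wasmannia auropunctata) ranged from 80.0 to 174 CPM in young brains (median 119) and from 118 to 215 in old brains (median 144). In young fat bodies it ranged from 58.5 to 481 CPM (median 222), and in old fat bodies from 318 to 1815 (median 846). Every old fat body lay above every old brain, while the young fat bodies ran both below and above the young brains.

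The tissue difference for this contig was 2.71 ± 0.33 (log2 ± SE, edgeR adjusted p = 3.7e-06) in old queens. In young queens it was 0.93 ± 0.34 (adjusted p = 0.029), with 6 of 8 fat bodies above the brain median. That call was lost with limma-voom (adjusted p = 0.096), without young brain Y-102 (0.057) and without young brain Y-361 (0.053). The levels also varied more between queens in the fat body, where the coefficient of variation was 59.3% in young and 56.6% in old queens, than in the brain, where it was 26.9% and 23.7%. The 2 transferrin contigs, the fat body markers available among the described contigs, ranged from 113 to 448 CPM summed in the brains and varied more widely in the fat body, from 54.8 to 2648 CPM in young and from 971 to 8298 in old fat bodies. The haemocyte list held 1 contig, croquemort-like, with medians of 94.8 CPM in young brains, 89.2 in old brains, 155 in young fat bodies and 353 in old fat bodies. The 5 contigs found by the gut words, which include a lysosomal alpha-glucosidase-like and an antichymotrypsin-like contig, summed to medians of 71.2 CPM in young brains, 68.1 in old brains, 248 in young fat bodies and 928 in old fat bodies. In old fat bodies the 2 maltase 2-like contigs had medians of 492 and 345 CPM and the alpha-glucosidase-like contig 136. The antichymotrypsin-like contig ran the other way, with medians of 18.3 and 18.8 CPM in young and old brains. In young and old fat bodies it had 10.4 and 6.0 CPM. The chymotrypsin-like contig had a median of 0.154 CPM at most. These list totals had their highest medians in old fat bodies, as the demethylase did, and their part in its levels was not tested. The 2 muscle contigs summed to medians between 2.78 and 13.6 CPM and the photoreceptor contig to medians between 0.295 and 0.985 CPM, without that order.

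KDM7A is a Jumonji-type demethylase that in mammals removes repressive methyl marks from histone H3. The lysine-specific demethylase 7A-like contig (TR66393c0_g13_i1, 1894 bases, best hit in Solenopsis invicta) ranged from 30.0 to 52.9 CPM in young brains (median 39.1), from 19.1 to 48.9 in old brains (median 38.2), from 4.33 to 8.06 in young fat bodies (median 5.58) and from 7.11 to 24.9 in old fat bodies (median 10.9). Young fat bodies lay far below young brains. Old fat bodies overlapped the old brains only where O-189, at 24.9 CPM, lay above old brains O-603 and O-796, at 19.1 and 19.7 CPM. The other old brains were at 34.5 CPM or more. The contig was lower in the fat body by a log2 difference of -2.70 ± 0.20 (edgeR adjusted p = 1.4e-08) in young and -1.35 ± 0.28 (adjusted p = 0.00055) in old queens.

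Between old and young brains none of the 10 members passed the edgeR test, and neither did any of 40572 contigs (0.0%). Their adjusted p values ran from 0.98 to 1. At an unadjusted p under 0.05, 2 of 10 members and 4.64% of contigs passed. DESeq2, which called 0.495% of contigs in this comparison, and limma-voom, which called 0, called no member. No member had groups without overlap, against 0.0518% of contigs. A member that missed the threshold is not shown to be equal in old and young brains.

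The 2 members below 0.05 before adjustment were the demethylase 1 homolog 3-like contig, at 0.41 ± 0.18 (old minus young, edgeR adjusted p = 1, unadjusted 0.036), and the 1150-base SETD1B-like contig, at -0.30 ± 0.11 (adjusted p = 0.98, unadjusted 0.019). Old brains lay above the young median in 7 of 8 libraries for the former and below it in 8 of 8 for the latter. Tip60 and SDS3 were also below the young median in 8 of 8 old brains, at -0.13 ± 0.08 and -0.14 ± 0.10, though neither passed. The median difference of the 10 members was -0.14, against 0.01 over all contigs. Several members share a gene or may do so, and all were chosen in fat bodies of the same queens, so nothing is read from this median. For H3.3 the 917-base contig was at 0.03 ± 0.13 and the 928-base contig at -0.09 ± 0.09.

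**Figure D4:**
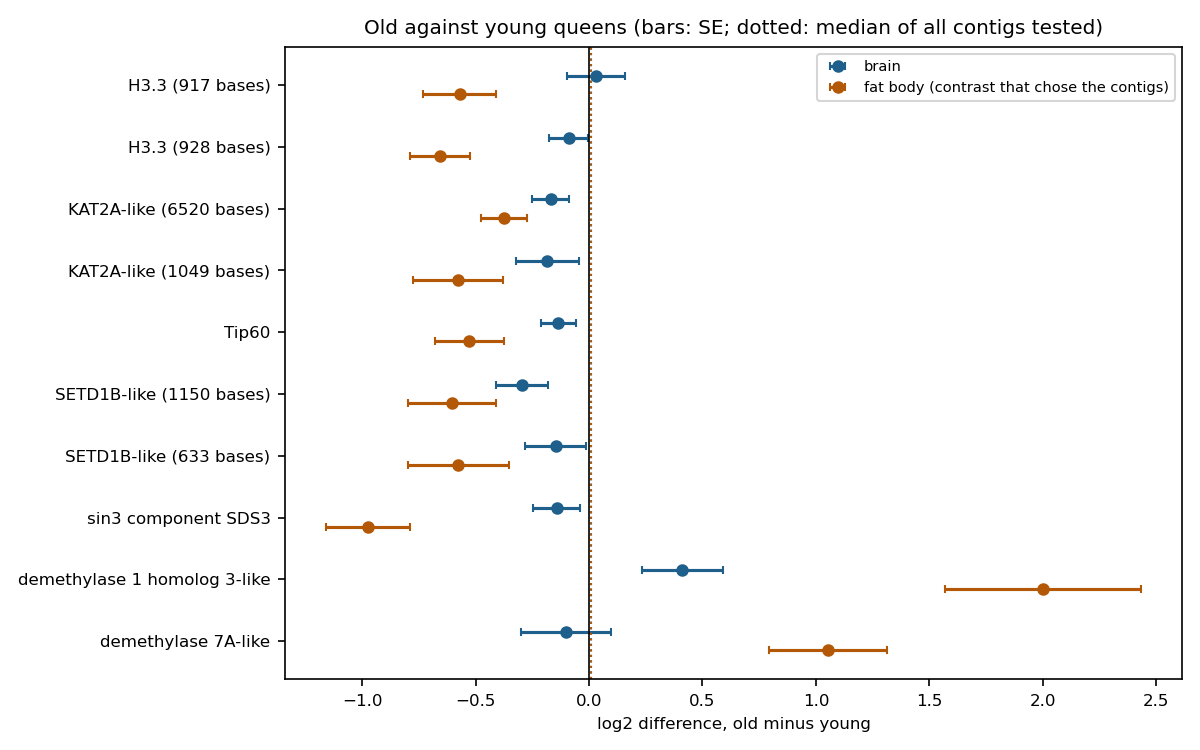
Log2 difference of old minus young queens in the brain and in the fat body for the 10 members, with bars of 1 SE from edgeR, 8 libraries per group, and dotted lines at the median of all contigs. The brain values lie between -0.30 and 0.41, and the fat body values, which chose the members, between -0.97 and 2.0.

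In the fat body, where age chose the members, 8 of the 10 contigs were lower in old queens and 2 were higher. The 2 higher ones both had a best hit named as a demethylase, the 1 homolog 3-like contig at 2.0 ± 0.43 and the 7A-like contig at 1.05 ± 0.26 (log2 ± SE, old minus young). Among the lower ones SDS3 differed most, at -0.97 ± 0.19, and was the only member whose age groups did not overlap, beside 0.492% of 27664 contigs. Age in these libraries chose the members, so nothing is read from this share. The H3.3 contigs were at -0.57 ± 0.16 and -0.66 ± 0.13, Tip60 at -0.53 ± 0.15, and the SETD1B-like contigs at -0.60 ± 0.19 and -0.58 ± 0.22. The KAT2A-like contigs were at -0.38 ± 0.10 for the 6520-base and -0.58 ± 0.20 for the 1049-base contig. The authors' deposited table listed all 10, since it was used in choosing them, and nothing is read from this count. The contigs that shared a component with KAT2A-like and SDS3 members were not among those the authors described, and they stood at -0.08 ± 0.23 and -0.05 ± 0.25. Their partners were chosen on this age difference, so the choice bears on the contrast between them, and nothing is read from it.

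Members were compared with each other over the 16 queens after the mean of each age was removed, an analysis added after the data were seen. Of 45 pairs in the brain, 1 passed by Pearson correlation and 2 by Spearman correlation with p adjusted over 90 relations, and none of 45 passed in the fat body. In the brain the demethylase 7A-like contig and the 1049-base KAT2A-like contig ran opposite to each other, with r = -0.861 (permutation adjusted p = 0.0018) and rho = -0.812 (adjusted p = 0.039). The relation was -0.825 in young and -0.909 in old queens, and -0.812 without the 2 farthest queens. Old brains O-603 and O-796 were at 19.1 and 19.7 CPM for the demethylase and at 6.20 and 6.88 CPM for the KAT2A-like contig. These are the 2 brain libraries that correlated least with their group. Without both, and with the age means taken again, r was -0.799 (permutation p = 0.0021) and rho was -0.754 (p = 0.0058) over 14 queens. At the other end, O-469 had 45.8 CPM of the demethylase and 4.38 CPM of the KAT2A-like contig.

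This pair was not isolated among contigs of the brain. Of 40410 other contigs, 41 (0.101%) had a correlation with the demethylase 7A-like contig as low as this, and 785 (1.94%) one as far from 0 in either direction. With the 1049-base KAT2A-like contig, 300 contigs (0.742%) had a correlation as low. The first principal component of the brain deviations, which held 11.9% of their variance, correlated at 0.903 with the demethylase, at -0.735 with the 1049-base and at -0.836 with the 6520-base KAT2A-like contig. Depth correlated at 0.0765 and -0.0788 with the pair and complexin at 0.561 and -0.497, and the part of these in the relation was not tested. The 2 SETD1B-like contigs rose and fell together in the brain, with rho = 0.785 (permutation adjusted p = 0.045), whereas r = 0.716 did not pass (adjusted p = 0.13). No member passed for the correlation between the brain and the fat body of a queen, with a smallest adjusted p of 0.42 over 20 permutation tests.

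**Figure D5:**
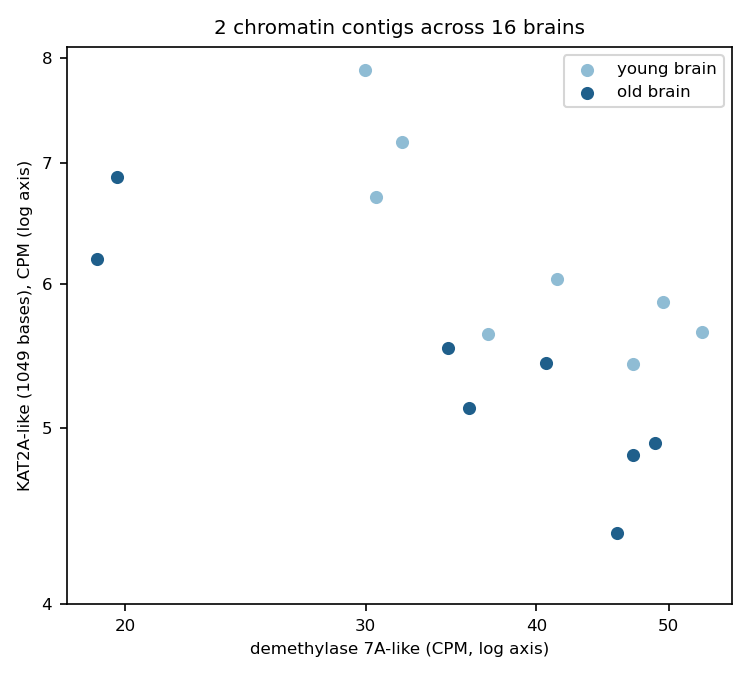
Level of the demethylase 7A-like contig (horizontal) and of the 1049-base KAT2A-like contig (vertical) in the brain, in CPM on log axes, 1 point per queen, 8 old and 8 young. Queens high in the demethylase were low in the KAT2A-like contig, with r = -0.861 over 16 queens after age means were removed.

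Contigs with the most similar pattern were sought among 592 or 593 contigs with a protein name, by the Pearson correlation of log2 CPM over the 32 libraries after the 4 group means were removed. For the demethylase 1 homolog 3-like contig they were a sodium-driven chloride bicarbonate exchanger (r = 0.84), sodium bicarbonate cotransporter 3-like (0.79), acidic amino acid decarboxylase GADL1 (0.72) and oxidation resistance protein 1 (0.67). For the demethylase 7A-like contig they were protein Tob1-like (0.76), the ubiquitin ligase CBL-B (0.71), calmodulin-binding transcription activator 2 (0.65) and UMP-CMP kinase (0.64). The 917-base H3.3 contig ran closest to SAGA-associated factor 29 (0.54), maltase 2-like (0.54), a peroxisomal leader peptide-processing protease-like contig (0.53) and an RNA/RNP complex-1-interacting phosphatase-like contig (0.50). The 928-base contig ran closest to the spindle checkpoint protein MAD1 (0.65), mitochondrial 28S ribosomal protein S29 (0.62), sestrin-3 (0.53) and band 3 anion transport protein (0.53). The named contigs were themselves described because of age in these libraries.

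The word list for other chromatin genes held 2 further contigs with an ant hit. Between tissues 2 passed in young queens, beside 57.0% of all contigs, and 1 in old queens, beside 55.8%. Like the members, both were described because of a difference between ages, for SAP130-A in the fat body, and nothing is read from these counts. Chromodomain-helicase-DNA-binding protein 7, a nucleosome remodeller, had medians of 159 CPM in young brains, 146 in old brains, 33.5 in young fat bodies and 55.0 in old fat bodies. The tissues did not overlap in either age, beside 35.9% of contigs in young and 33.0% in old queens. Its log2 differences were -2.12 ± 0.21 (edgeR adjusted p = 3.2e-07) in young and -1.08 ± 0.19 (adjusted p = 0.00016) in old queens. SAP130-A, a subunit of Sin3 deacetylase complexes, was rare and variable, with medians of 1.87 CPM in young brains and 6.24 in young fat bodies. Its difference was 1.83 ± 0.53 (adjusted p = 0.0071) in young queens, but 1.52 (adjusted p = 0.057) with the queen as a block and -0.20 when the counts of its component were summed. In old queens the medians were 1.54 CPM in the brain and 0.29 in the fat body, where 3 of 8 libraries had no count. The difference in old queens was -1.31 ± 0.84 and did not pass (adjusted p = 0.2), whereas the summed component did, at -0.40 (adjusted p = 0.00022).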

How the data were processed

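Deposited by the authors were a matrix of unscaled whole-number counts, with 228763 assembled contigs and 32 libraries, and 4 tables of their own comparisons that hold, per the file headers, a mean normalised signal, a log2 fold change with its error, a test score and a p-value with its adjustment. Tools in the submitters' processing notes are DESeq2 1.2.10, RSEM 1.3.0, Trimmomatic 0.36, FastQC 0.11.5, Bowtie2 and Bowtie; no assembler is named there. Because RSEM assigns ambiguous reads in parts, these counts could be estimates rounded to whole numbers. All count columns matched a sample by name, and 3263 contigs had no count.

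The members and gene lists were chosen with earlier results of these data known. Counts were filtered with filterByExpr (count minimum 10, total minimum 15), scaled by TMM and tested with the quasi-likelihood test of edgeR 4.0.16 in R 4.3.3, on the 2 groups compared, with Benjamini-Hochberg adjustment over all contigs tested and a threshold of 0.05. Alternatives used limma 3.58.1 (voom) and DESeq2 1.42.0. The edgeR steps were tested on simulated data. Shares and correlations used permutation tests in SciPy 1.17.1, where the smallest exact two-sided p is 0.00016 for 8 against 8 libraries and 0.0078 for 8 pairs. Log2 CPM had a prior count of 2 for the contigs of most similar pattern and for the pairing of libraries. Correlations between members, and between the 2 tissues of a queen, used log2 CPM without a prior count.

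Labels give the queen of each library. Paired libraries of 1 queen deviated together from their group means, with correlations of 0.329 to 0.401, and at 0.0744 at most between other queens, with all 16 queens matching their own tissue best, so tissue tests were repeated with the queen as a block.

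Every member is named. Of other contigs that fitted the chromatin word list and had an ant hit, up to 8 with the smallest adjusted p were to be named, and the list held 2, and for contigs most like a member the 4 with the highest correlation were taken. Of the 8 lists of cell type words, the glia and germline lists fitted no contig, and the other lists are reported.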

Additional observations from a re-analysis of the deposited data

Results flagged for a closer look

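In 5 of 56 groups of 8 values, 1 library lay far from the other 7 relative to the range of its group, where chance gives about 1 group in 20. The 928-base H3.3 contig was at 110.9 CPM in young brain Y-361, above the other young brains. SDS3 was at 31.8 CPM in young brain Y-102, below the other young brains. The demethylase 7A-like contig was at 24.9 CPM in old fat body O-189, and the 633-base SETD1B-like contig at 2.75 CPM in old fat body O-603, each above the other old fat bodies. Old fat body O-482 had the lowest correlation with the rest of its group, 0.842.

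Fits without each of these libraries, added after the data were seen, ended or made 2 kinds of call. The tissue difference of the demethylase 1 homolog 3-like contig in young queens did not pass without Y-102 or without Y-361, at 0.85 and 0.88 (edgeR adjusted p = 0.057 and 0.053). That of the 917-base H3.3 contig in old queens passed without O-189, at -0.43 (adjusted p = 0.024), and without O-482, at -0.44 (adjusted p = 0.019). The median over all contigs moved too, to -0.22 without O-189 and -0.24 without O-482, against -0.05 with no library left out.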

How the results depend on the processing

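Of 352 values recomputed under an alternative, 317 kept their direction and their side of the threshold, 16 newly passed, 11 no longer passed and 8 changed sign. The sign changes were those of values near 0 or of a summed component. The 917-base H3.3 contig in young queens went to -0.063 with no filter on low counts and to -0.0028 summed per component. In the brain, old minus young, it went to -0.0055 with no filter, -0.0044 in a fit of all 32 libraries and -0.025 summed per component, and ran from -0.018 to 0.087 when 1 brain was left out, below 0 without old brain O-603 or O-796. SAP130-A in young queens went to -0.20 summed per component. With no filter, 51185 contigs (26.1%, against 20026 contigs or 57.0%) and 3 of 10 members passed between tissues in young queens, and 38356 contigs (17.7%, against 19300 or 55.8%) in old queens. Between ages in the brain DESeq2 called 0.495% of contigs and the fit of all 32 libraries 0.00829%, which is 4 contigs, against 0. Of the 2 other chromatin contigs, 1 passed in young queens with the component summed and 1 with the queen as a replicate block, and 2 in old queens with limma-voom and with the component summed. The cause of these changes was not tested. With the queen as a block, the 1150-base SETD1B-like contig (-0.41, adjusted p = 0.085) and SAP130-A (1.52, adjusted p = 0.057) no longer passed in young queens, and no other call on a member or on the 2 other contigs changed. The rarest member, the 633-base SETD1B-like contig, rested on 26 to 45 reads per library in old fat bodies.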

Other observations

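A pair of other chromatin-related contigs was looked at after the values were seen. Ubinuclein-2, in mammals a partner of the HIRA complex that puts H3.3 into chromatin, ranged from 77.6 to 105 CPM in young brains and from 60.0 to 84.3 in young fat bodies. In old queens it ranged from 48.0 to 99.7 CPM in the brain and from 77.5 to 116 in the fat body, so the tissues overlapped in both ages. Fat body minus brain was -0.30 ± 0.10 (log2 ± SE, edgeR adjusted p = 0.017) in young queens and 0.47 ± 0.14 (adjusted p = 0.0075) in old queens, and the difference between the ages was not tested. The value in old queens includes the 0.20 by which its test scale lies above that of the printed CPM.

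SAGA-associated factor 29, a subunit of the complex that holds KAT2A, had medians of 18.3 CPM in young brains, 18.8 in old brains, 19.8 in young fat bodies and 14.1 in old fat bodies. Its tissue difference was 0.12 in young queens (edgeR adjusted p = 0.44) and -0.31 in old queens (adjusted p = 0.075, -0.26 relative to the median contig), and passed in neither. Like the members, both contigs were described because of age in the fat body.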
